A study of Arabidopsis thaliana with 6 samples.

Results

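The genes described here had lower transcript levels in red-light-grown Arabidopsis thaliana seedlings than in dark-grown ones, and a smaller decrease in dark-grown seedlings of the pifQ mutant. They are the named genes whose mean log2 ratio to dark-grown Col-0 was -1 or lower over the 3 red light arrays and above -1 but at most -0.25 over the 3 pifQ arrays. A few families and 1 chromosome segment were left out by name or locus. The rule found 150 genes of 7234 named ones, and 93 with the arrays scaled to the same spread or 78 with quantile normalization. In all, 259 genes had a red light mean of -1 or lower. Of these, 56 that were not left out had a pifQ mean of -1 or lower, and 39 had one above -0.25. Because both means chose the genes, those means, and the limma calls of members made from them, are given below as a description only.

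Total RNA of whole seedlings was compared on 6 arrays with 2 dyes each. On 3 arrays the sample was wild-type Col-0 grown for 60 h under unbroken red light, with a fluence rate of 24 μmol m-2 s-1, and on 3 it was the pifQ mutant grown for 60 h in darkness. The reference on each array was Col-0 kept for 60 h in darkness, and each value gives the sample over that reference on the log2 scale, so that both comparisons share the control. All seeds lay on sucrose medium (1%) for 3 days in the cold and dark, at 4 °C, and then saw white light for 6 h (100 μmol m-2 s-1), so the dark-grown seedlings had also seen light once. The pifQ line carries mutations in PIF3, PIF4, PIL5 (PIF1) and PIL6 (PIF5) in every cell, and the labels do not give the alleles. None of these 4 genes has a named feature, so their transcripts give no check of the mutant. Every sample was labelled with Cy5 and every reference with Cy3. In the ratio of either group to dark Col-0, a dye effect and a change in transcript level therefore cannot be told apart. In red light against pifQ, the dyes were the same on both sides.

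PIFs are bHLH transcription factors that promote the dark-grown habit, with a long hypocotyl, a closed apical hook and small folded cotyledons. Light turns phytochrome into its active form, which binds PIFs and leads to their degradation. Red-light-grown wild type and a dark-grown mutant without these PIFs therefore share an open, short form, and genes of cell wall growth and auxin response are known to be more active in the dark-grown form. In whole seedlings, fewer cells of a type and less transcript per cell cannot be told apart. The values are ratios and not levels, so the tissue could not be checked by marker levels. Of the cell type markers listed, 1 root gene and 1 guard cell gene were measured: EXPA18 had red light and pifQ means of log2 -0.21 ± 0.41 and 0.23 ± 0.13, and FMA (FAMA) of 0.86 ± 0.054 and 0.19 ± 0.47 (SD, n = 3). Errors below are SD over 3 arrays, and the base of the logarithm was taken as 2.

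Over the 150 members, the mean ratio ranged from -2.96 to -1.001 in red light, with a median of -1.24, and from -0.99 to -0.25 in pifQ, with a median of -0.58. The medians over all 7234 named genes were -0.021 and -0.042. The pifQ mean amounted to 15.5% to 88.5% of the red light mean on the log2 scale, with a median of 45.7%. In 91 members it was under 50%. The 12 members with a red light mean below -2 had a median pifQ mean of -0.64. The 38 members between -1.1 and -1 had one of -0.57. The limits hold every pifQ mean within the same range whatever the red light mean, so nothing is read from these medians.

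**Figure D1:**
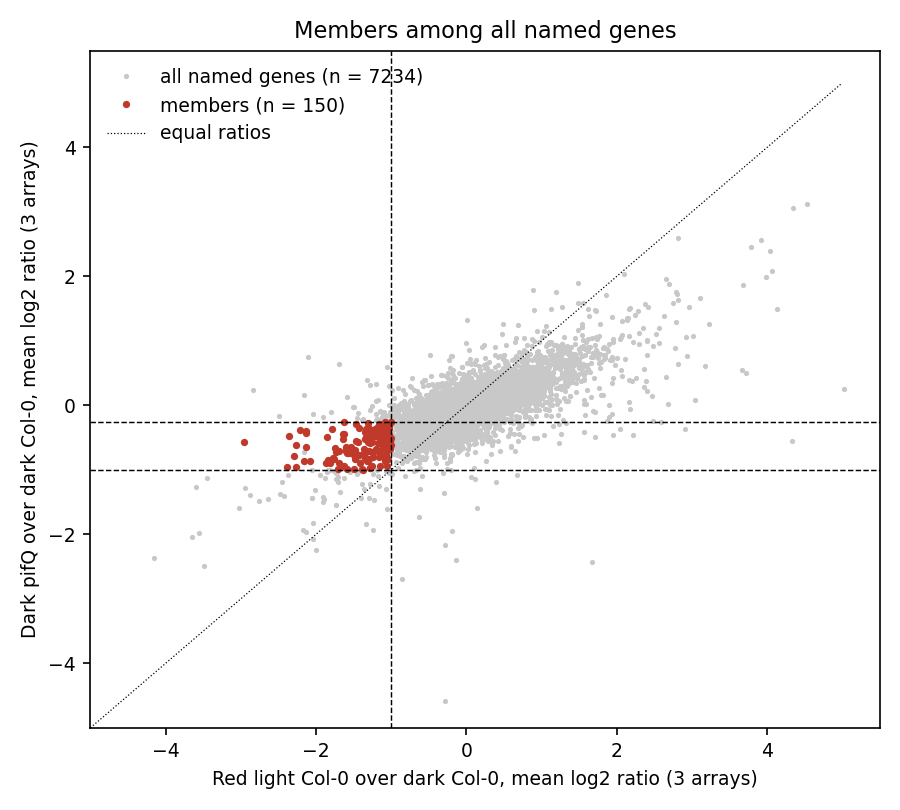
Mean log2 ratio over dark Col-0 in red light Col-0 (horizontal axis) and in dark pifQ (vertical axis), each over 3 arrays, for all 7234 named genes (grey) and the 150 members (red). Dashed lines mark the limits of -1, -1 and -0.25 that chose the members, and the dotted line marks equal ratios. The limits place every member above that line.

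The limits passed through a continuous cloud of genes. Just inside the red light limit were UGT76B1 (log2 -1.002 ± 0.095) and AT2G21840 (-1.001 ± 0.16), and just outside it IVD (-0.9997 ± 0.24) and AT5G16880 (-0.998 ± 0.13). At the upper pifQ limit, AT1G29020 (log2 -0.25 ± 0.15) and UGT76B1 (-0.26 ± 0.25) were inside, and AT5G01210 (-0.22 ± 0.42) and AT2G36220 (-0.22 ± 0.30) were outside. At the lower pifQ limit, EXLA2 (log2 -0.995 ± 0.54) and AT2G28570 (-0.993 ± 0.30) were inside, and AT1G58410 (-1.005 ± 0.41) and AT4G12510 (-1.007 ± 0.67) were outside. These genes lay closer to a limit than the spread between their arrays.

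By limma with Benjamini-Hochberg adjustment over all named genes, at an adjusted p threshold of 0.05, 150 of 150 members were called lower in red light, where 19.0% of all named genes were. In pifQ 75 members were called lower, where 7.04% of all named genes were. In red light against pifQ 29 members were called lower, where 1.16% of all named genes were. The rule used each of these contrasts, so nothing is read from the counts. The count for red light against pifQ was 3 with the arrays scaled to the same spread, 2 with quantile normalization and 87 with array weights. It was 3, 6 and 13 without red light replicates 1, 2 and 3, and 3, 5 and 59 without pifQ replicates 1, 2 and 3. The count for pifQ was 30, 35 and 48 without pifQ replicates 1, 2 and 3. Of the 75 members called in pifQ, 14 were also called in red light against pifQ, and 60 members were called in neither.

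In 100 members all 3 red light arrays lay below all 3 pifQ arrays, and 10.6% of all named genes did so. In the other 50 members the arrays of the groups overlapped. With the arrays scaled to the same spread, or with quantile normalization, 53 members had groups apart. All 3 pifQ arrays were below 0 in 129 members, with 28.0% among all named genes, and 21 members had a pifQ array above 0. The 3 pifQ arrays were below 0 in 100% of those 56 genes and in 20.5% of those 39. All 3 red light arrays were below 0 in 149 members and in 100% of those 56 and those 39 genes, with 36.3% among all named genes. The exception among the members was AT4G39675, at log2 -1.64, 0.022 and -1.58 on red light replicates 1, 2 and 3. The limits on both means favour red light arrays below pifQ arrays, and arrays below 0. Nothing is therefore read from the excess of these counts over all named genes.

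The annotation gives 23 members a symbol, and 4 more a synonym that names a product or family. The 27 had a median of -1.24 in red light and -0.64 in pifQ, against -1.24 and -0.58 over all members. Their groups overlapped in 10 and lay apart in 17, beside 100 of all 150 members and 10.6% of all named genes. They were singled out because they carry a name, and some fall outside the rule for naming genes and were added after their values were seen. The remaining 123 members have a locus identifier only, and no role is given to them.

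**Figure D2:**
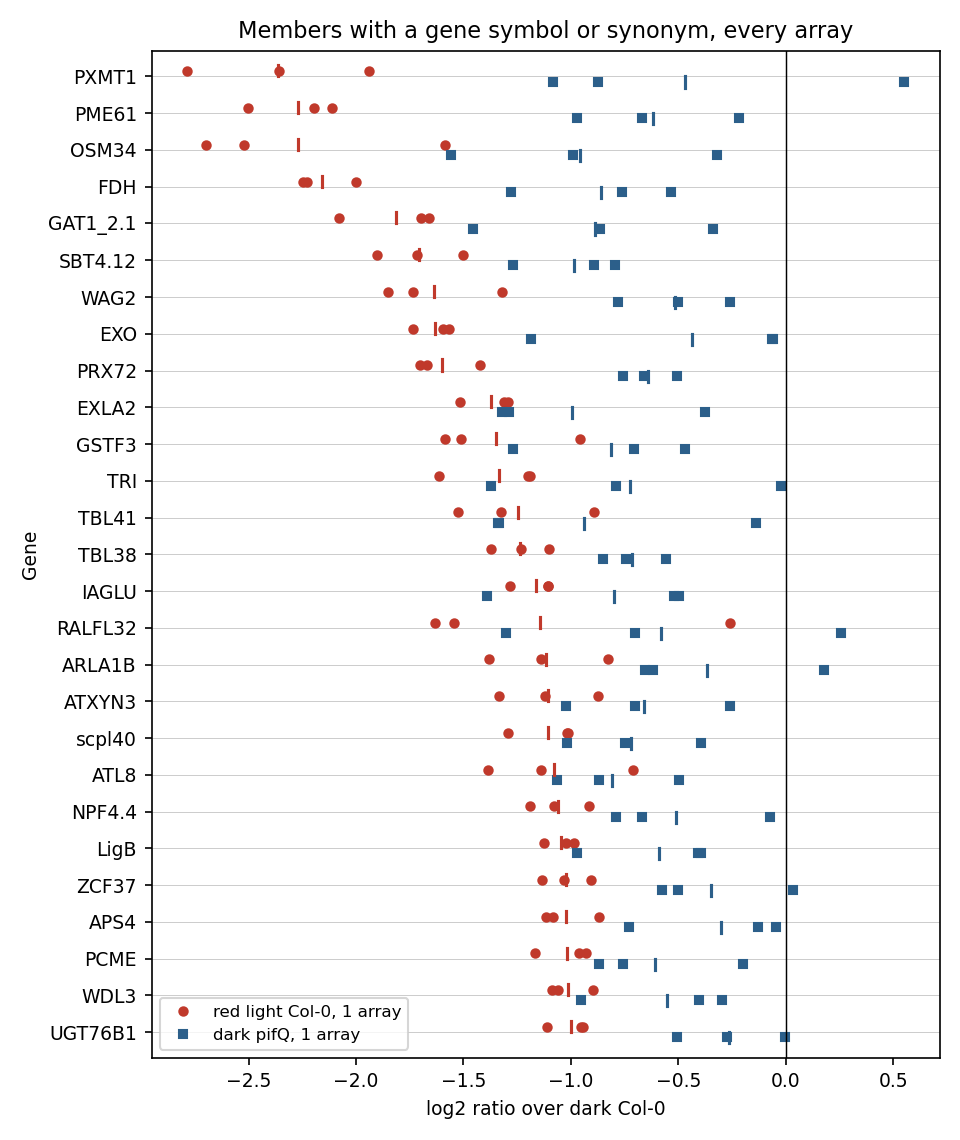
Log2 ratio over dark Col-0 on each of the 3 red light arrays (red circles) and 3 pifQ arrays (blue squares) for the 27 members with a symbol or a naming synonym, ordered by red light mean; short vertical lines are group means. PXMT1, PME61, OSM34 and FDH are lowest in red light, and the groups of 10 genes, such as EXLA2 and RALFL32, overlap.

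Several of the named members act on the cell wall or on growth. PME61, a pectin methylesterase, which removes methyl groups from wall pectin, stood at log2 -2.50, -2.11 and -2.20 on the red light arrays and at -0.67, -0.22 and -0.97 on the pifQ arrays. Its red light arrays were all well below its pifQ arrays, and its means were 4.82-fold lower than dark Col-0 in red light and 1.54-fold lower in pifQ. EXO (EXORDIUM), a secreted protein known to promote cell expansion in response to brassinosteroid, had -1.74, -1.60 and -1.57 in red light and -0.065, -0.058 and -1.19 in pifQ. Its pifQ replicates 1 and 2 were near 0, and replicate 3 alone was low. EXLA2, an expansin-like protein, had -1.31, -1.29 and -1.51 in red light and -1.32, -0.37 and -1.29 in pifQ. Replicate 2 was the exception among its pifQ arrays, and the groups overlapped.

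TBL38 and TBL41 belong to the TRICHOME BIREFRINGENCE-LIKE family, whose best studied members acetylate wall polysaccharides. TBL38 had log2 -1.37, -1.104 and -1.23 in red light and -0.85, -0.56 and -0.74 in pifQ, with the groups apart. TBL41 had -1.53, -1.33 and -0.89 in red light and -1.33, -1.34 and -0.14 in pifQ, where replicate 3 stood far above the other arrays. AT4G08160, with the synonym ATXYN3 of a xylanase, had a mean of -1.11 ± 0.23 in red light and -0.66 ± 0.38 in pifQ, and its groups overlapped. AT3G23090, with the synonym WDL3, belongs to the WAVE-DAMPENED2-LIKE microtubule-binding proteins and had -1.01 ± 0.10 and -0.55 ± 0.35, also with overlap. RALFL32, a peptide of the RALF family of secreted signals, had -1.54, -0.26 and -1.63 in red light and 0.26, -0.70 and -1.30 in pifQ. Both of its groups spread so widely that they overlapped.

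WAG2 and IAGLU are linked to auxin. WAG2, a protein kinase that phosphorylates PIN auxin exporters and is known to keep the apical hook closed, stood at log2 -1.73, -1.85 and -1.32 in red light and at -0.26, -0.78 and -0.50 in pifQ. Its groups were apart, and the means were 3.11-fold and 1.43-fold lower than dark Col-0. IAGLU, the indole-3-acetate glucosyltransferase that links auxin to glucose, had -1.28, -1.11 and -1.11 in red light and -0.52, -0.50 and -1.39 in pifQ. On pifQ replicate 3 it was lower than on any red light array.

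Of 67 measured genes in the redox class, 4 were members, as were 150 of all 7234 named genes. The class as a whole was not low, with medians of log2 -0.0099 in red light and -0.094 in pifQ. In red light 19 of the 67 were called lower and 15 higher, where 19.0% and 18.8% of all named genes were. In pifQ 5 were called lower and 4 higher, where 7.04% and 4.59% were. The counts called lower include the 4 members in red light, and FDH, AT5G66390 and GSTF3 in pifQ. The rule chose the members for their low values. FDH, formate dehydrogenase, stood at log2 -2.25, -2.23 and -1.9998 in red light and at -0.53, -0.76 and -1.28 in pifQ. Its groups were apart, with means 4.46-fold and 1.81-fold lower than dark Col-0. AT5G66390, with the synonym PRX72 of a class of secreted peroxidases that act in lignification, had -1.70, -1.67 and -1.42 in red light and -0.51, -0.66 and -0.76 in pifQ. Its groups were apart, and its pifQ spread of 0.13 was the smallest of the 27 genes. GSTF3, a glutathione S-transferase, had -1.35 ± 0.34 in red light and -0.81 ± 0.41 in pifQ. TRI, named as a tropinone reductase, had -1.33 ± 0.24 and -0.73 ± 0.68. The groups of GSTF3 and TRI overlapped, and GSTF3 has a near-identical family copy that its probe may not tell apart.

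Of 62 measured transferases of sugars and other groups, 3 were members, as were 150 of all 7234 named genes: IAGLU, GAT1_2.1 and UGT76B1. The class medians were log2 -0.074 in red light and -0.023 in pifQ. In red light 16 of the 62 were called lower and 13 higher, where 19.0% and 18.8% of all named genes were. In pifQ 5 were called lower and 7 higher, where 7.04% and 4.59% were. The counts called lower include the 3 members in red light, and IAGLU and GAT1_2.1 in pifQ. The rule chose the members for their low values. GAT1_2.1, a glutamine amidotransferase, had log2 -2.08, -1.70 and -1.66 in red light and -0.34, -0.86 and -1.45 in pifQ, and the groups were apart. UGT76B1, a glucosyltransferase that acts on salicylic acid and isoleucic acid, had -0.95, -1.11 and -0.94 in red light and -0.27, -0.0040 and -0.51 in pifQ. PXMT1, a methyltransferase by its name, had -2.79, -2.36 and -1.94 in red light and 0.55, -1.08 and -0.87 in pifQ. Its red light mean was 5.14-fold below dark Col-0, and its pifQ replicate 1 lay above 0.

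OSM34, an osmotin of the thaumatin-like defence proteins, had log2 -2.52, -2.70 and -1.59 in red light and -0.32, -0.99 and -1.56 in pifQ. Its highest red light array and its lowest pifQ array were almost level. SBT4.12, a subtilase, had -1.90, -1.71 and -1.503 in red light and -0.79, -0.89 and -1.27 in pifQ, with the groups apart. The peptidase scpl40, a serine carboxypeptidase-like protein, had -1.11 ± 0.16 and -0.72 ± 0.31. ATL8, of a family of RING-type ubiquitin ligases, had -1.08 ± 0.34 and -0.81 ± 0.29. Both scpl40 and ATL8 had overlapping groups.

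The last named members had red light means near the limit of -1. APS4, an ATP sulfurylase, the first enzyme of sulfate assimilation, had log2 -1.02 ± 0.13 in red light and -0.30 ± 0.37 in pifQ. AT1G33440 (NPF4.4), of the NRT1/PTR family of transporters, had -1.06 ± 0.14 and -0.51 ± 0.38. PCME, a methylesterase of prenylated proteins, had -1.02 ± 0.13 and -0.61 ± 0.36. ARLA1B, an ADP-ribosylation factor-like small GTPase, had -1.12 ± 0.28 and -0.37 ± 0.47. LigB had -1.04 ± 0.071 and -0.59 ± 0.33, and ZCF37 had -1.02 ± 0.12 and -0.35 ± 0.33. The groups of these 6 genes did not overlap.

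Among members with a locus identifier only, AT5G39160 had the lowest red light mean, at log2 -3.27, -3.23 and -2.39, and stood at -0.64, -0.46 and -0.58 in pifQ. That is 7.79-fold below dark Col-0 in red light and 1.48-fold below it in pifQ, with a small pifQ spread of 0.092. The nearby genes AT5G39150 and AT5G39180 are not members, because their pifQ means were -1.26 ± 0.31 and -1.13 ± 0.25 beside red light means of -3.60 ± 0.73 and -3.45 ± 0.70. The 3 genes had the same order of red light arrays, with replicate 3 highest, and probes of nearby related genes may not tell them apart.

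AT5G38940 had log2 -2.67, -1.73 and -2.01 in red light and -0.22, -1.02 and -0.71 in pifQ. AT5G67020 had -2.67, -2.63 and -1.84 in red light and -1.20, 0.019 and -1.68 in pifQ. AT1G30760 had -2.37, -2.55 and -1.97 in red light and -0.92, 0.085 and -1.52 in pifQ. In AT5G67020 and AT1G30760, pifQ replicate 2 was near 0 and the other pifQ arrays were low. AT5G62280 had -2.22, -2.27 and -2.15 in red light and 0.38, -0.12 and -1.41 in pifQ. AT5G43520 had -2.54, -1.75 and -2.13 in red light and 0.077, -0.14 and -1.23 in pifQ. AT2G28960 had -2.44, -2.43 and -1.51 in red light and 0.11, -0.27 and -1.04 in pifQ. In these 3 genes pifQ replicate 3 was far below the other pifQ arrays, and without it the pifQ mean of AT5G62280 was above 0, at 0.13.

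The smallest spread over the pifQ arrays was in AT5G09290 (log2 -0.56 ± 0.041), AT5G53110 (-0.46 ± 0.045), AT2G31540 (-0.42 ± 0.046) and AT1G77530 (-0.28 ± 0.051). The largest was in AT5G62280 (± 0.92), PXMT1 (± 0.89), AT5G67020 (± 0.88) and AT1G30760 (± 0.81). The pifQ mean was smallest as a share of the red light mean in AT1G29020 (15.5%), AT5G62280 (17.3%), AT2G28960 (18.9%) and AT5G39160 (18.9%). It was largest in AT4G01410 (88.5%), AT5G01790 (81.3%), AT4G19920 (79.6%) and AT4G19380 (79.4%). The groups overlapped in these last 4 genes. AT3G61390 is the 1 member with more than 1 feature, and its 2 features gave red light means of -1.13 and -1.103 and pifQ means of -0.45 and -0.53.

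The order of the arrays within a group comes from the same values that the rule averaged, so it is a description. Among the pifQ arrays, replicate 3 was the lowest in 87 of 150 members (58.0%), where it was lowest in 32.3% of all named genes. Replicates 1 and 2 were the lowest in 28 and 35 members, beside 29.8% and 37.9% of all named genes. The medians of the members were log2 -0.47, -0.55 and -0.76 on pifQ replicates 1, 2 and 3. All 150 members were below 0 on replicate 3, and 139 and 140 were on replicates 1 and 2. Replicate 3 was also lowest in 50.0% of the 56 genes with a pifQ mean of -1 or lower and in 59.0% of the 39 with one above -0.25, and no test of the members against these genes was made. Of the 462 genes with a red light mean of 1 or higher, it was lowest in 45.7%.

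In 27 members (18.0%) pifQ replicate 3 lay at least 0.5 below the other pifQ arrays, where 5.49% of all named genes did so. The share was 23.2% of the 56 genes with a pifQ mean of -1 or lower, 25.6% of the 39 with one above -0.25 and 22.9% of the 462 with a red light mean of 1 or higher. Named genes among the 27 are EXO, FDH, OSM34, GAT1_2.1, TRI, IAGLU, RALFL32 and APS4. Replicates 1 and 2 lay at least 0.5 above the other pifQ arrays in 13 (8.67%) and 15 members (10.0%). The shares were 2.28% and 3.73% of all named genes, 7.14% and 10.7% of those 56 genes and 7.69% and 10.3% of those 39. They lay at least 0.5 below in 5 (3.33%) and 9 members (6.0%), where 3.39% and 5.96% of all named genes did so. The distance of 0.5 was chosen after the values were seen.

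**Figure D3:**
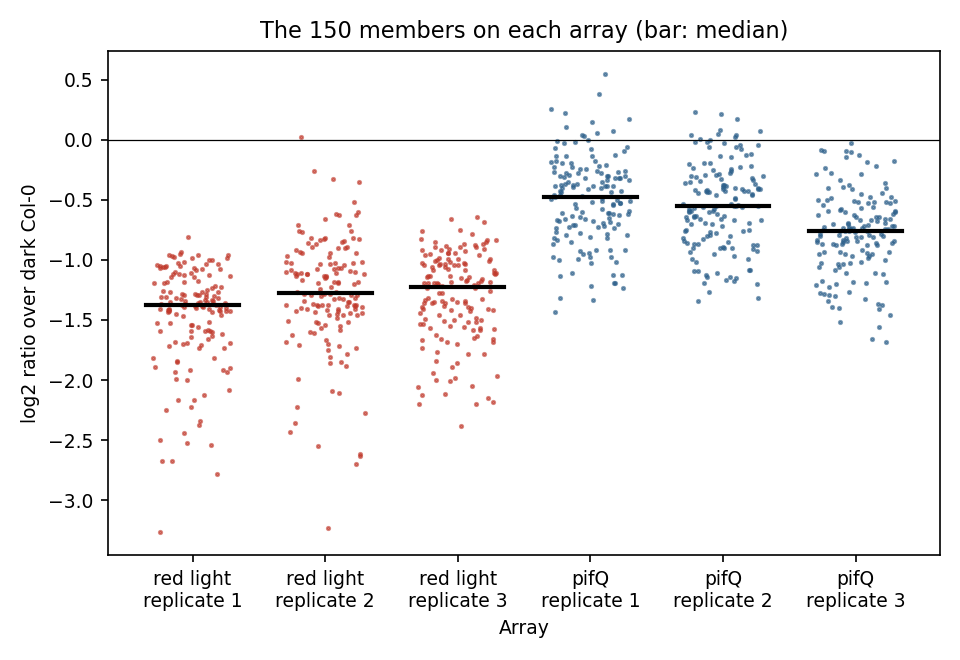
Log2 ratio over dark Col-0 (vertical axis) of the 150 members on each of the 6 arrays; each point is a gene, and black bars are medians. The medians run from -1.37 to -1.22 on the red light arrays and are -0.47, -0.55 and -0.76 on pifQ replicates 1, 2 and 3.

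Among the red light arrays, replicate 1 was the lowest in 70 members, or 46.7%, where it was lowest in 23.6% of all named genes, in 46.4% of the 56 genes with a pifQ mean of -1 or lower and in 20.5% of the 39 with one above -0.25. Replicates 2 and 3 were lowest in 40 members each, beside 39.3% and 37.1% of all named genes. The medians were log2 -1.37, -1.27 and -1.22. In 14 members red light replicate 2 lay at least 0.5 above the other red light arrays (9.33%, beside 8.31% of all named genes, 16.1% of those 56 genes and 17.9% of those 39). AT4G39675, RALFL32 and AT3G20340 are among them, the last at -1.59, -0.33 and -1.35. Red light replicate 3 lay at least 0.5 above the others in 8 members (5.33%). The share was 1.01% of all named genes, 16.1% of those 56 genes and 7.69% of those 39. The members had a median SD of 0.24 over the red light arrays and 0.32 over the pifQ arrays, and the SD was larger in pifQ in 92 of 150, or 61.3%, beside 65.8% of all named genes.

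Each array was also left out in turn, the genes were chosen again from the remaining arrays, and their values were read on the array left out. Without pifQ replicate 1, 159 genes were chosen, and their median on that array was log2 -0.43. Of these, 113 (71.1%) were at -0.25 or lower there, where 27.4% of all named genes were. Without pifQ replicate 2, 146 genes were chosen with a median of -0.52 on it, and 111 (76.0%) were at -0.25 or lower, where 31.2% of all named genes were. Without pifQ replicate 3, 141 genes were chosen with a median of -0.76 on it, and 128 (90.8%) were at -0.25 or lower, where 25.9% of all named genes were. Across all named genes each pifQ array correlated with the other 5 arrays at Pearson's r of 0.42 to 0.70, and all arrays share the dark Col-0 control. A share above that of all named genes is therefore built into the choice, and nothing is read from the excess. This reading was added after the values were seen.

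Without red light replicates 1, 2 and 3, the rule chose 137, 162 and 144 genes, with medians of log2 -1.36, -1.12 and -1.18 on the array left out. Of these genes, 119 (86.9%), 101 (62.3%) and 102 (70.8%) were at -1 or lower there, where 4.12%, 3.98% and 3.61% of all named genes were. At -0.25 or lower were 100%, 95.1% and 99.3% of them, where 28.9%, 31.7% and 27.4% of all named genes were. The 6 choices shared 124 to 137 genes with the 150 members. The arrays may share a dark Col-0 extract, which the labels do not settle, so an array left out need not be independent of the others.

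**Figure D4:**
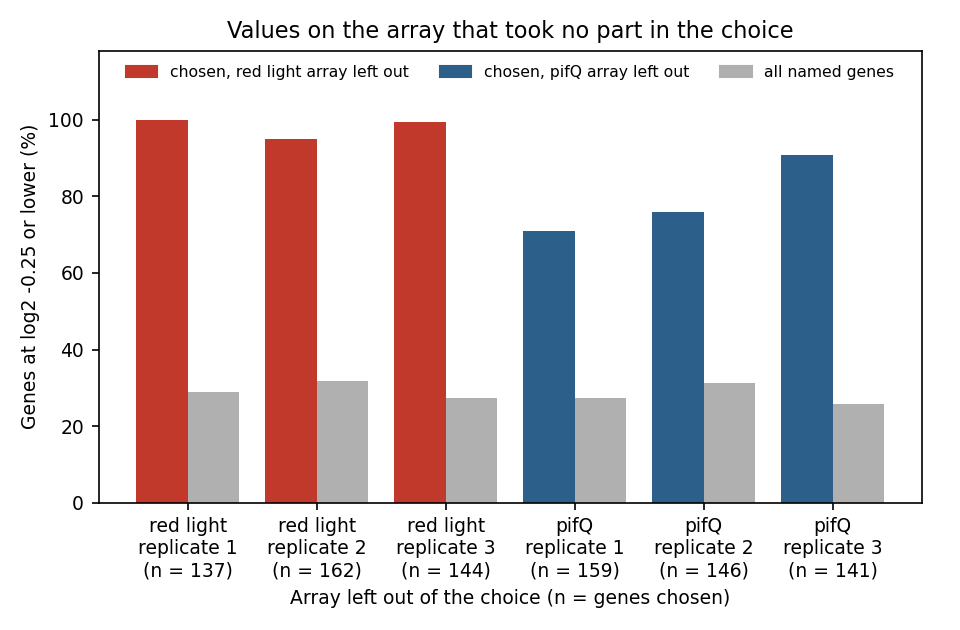
Share of genes at log2 -0.25 or lower (vertical axis, %) on the array named on the horizontal axis, for the genes chosen without that array (red or blue bars, n under each) and for all named genes (grey). For the pifQ arrays the shares are 71.1%, 76.0% and 90.8% among chosen genes and 27.4%, 31.2% and 25.9% among all.

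The members were spread over the genome much as the named genes are. Chromosomes 1, 2, 3, 4 and 5 held 39, 20, 31, 24 and 36 members, which is 2.01%, 1.85%, 2.16%, 2.23% and 2.11% of their named genes. The left-out segment lies on chromosome 2. In the gene order of the TAIR10.1 annotation no 2 members were direct neighbours, and 5 pairs had at most 2 protein-coding genes between them. AT1G77520 and AT1G77530 are such a pair, with red light means of log2 -1.17 and -1.31 and pifQ means of -0.33 and -0.28. AT3G20340 and AT3G20360 are another, at -1.09 and -1.59 in red light and -0.44 and -0.98 in pifQ.

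Relatives of the named members did not all move with them. In red light 19.0% of all named genes were called lower and 18.8% higher, and in pifQ 7.04% lower and 4.59% higher. Of 14 measured TBL genes, 5 were called lower and 3 higher in red light, and 4 lower and 1 higher in pifQ. The lower counts include the members TBL38 and TBL41, each called lower in both groups. TBL15 rose in red light, to log2 1.57 ± 0.29, as did TBL45, to 1.49 ± 0.17, beside pifQ means of 0.019 ± 0.15 and 0.63 ± 0.21. TBL36 met the red light limit (-1.08 ± 0.11), with a pifQ mean of -0.15 ± 0.70, above the upper pifQ limit. Of 13 scpl genes, 4 were called lower and 2 higher in red light, and scpl40 was the lowest of them. Of 5 RALFL genes, RALFL32 was the 1 called lower in red light and 2 were called higher, with RALFL24 at 1.12 ± 0.70. Of 36 genes with a UGT symbol, 9 were called lower and 10 higher in red light, and 3 lower and 4 higher in pifQ. The glucosyltransferase IAGLU does not carry that symbol and is not counted among them. These families were picked because they hold members, and the counts include those members, whose low values the rule chose.

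The list of wall genes had 19 measured genes, 2 of them members (PME61 and EXLA2). It was drawn up by symbol for wall loosening. It also took in CSLA03, CSLB03, CSLC5 and CSLC6, which are cellulose synthase-like genes and not wall-loosening ones. PME61 and EXLA2 are included in the counts called lower in red light and in pifQ. In red light 9 were called lower and 3 higher, where 19.0% and 18.8% of all named genes were, and in pifQ 5 were called lower and 0 higher, where 7.04% and 4.59% were. The list's median was log2 -0.43 in red light and -0.18 in pifQ. EXPA9, an expansin, was low in both groups (-1.73 ± 0.32 and -1.54 ± 0.41). EXPA4 and EXPA8, expansins with red light means of -0.96 ± 0.52 and -0.82 ± 0.20, were not low enough in red light for the rule. Their pifQ means were 0.0047 ± 0.73 and -0.35 ± 0.70, so EXPA4 also missed the upper pifQ limit. EXPB3 (1.33 ± 0.13) and CSLB03 (1.71 ± 0.19) were high in red light. The auxin list had 7 measured genes and no member. In red light 1 was called lower and 1 higher, IAA29 at -1.73 ± 0.084 and GH3.9 at 1.36 ± 0.30. Of the listed direct targets of PIFs 4 were measured, XTH33, EXPA8, IAA29 and HAT2, and all 4 were called lower in red light, where 19.0% of all named genes were, and 2 in pifQ, where 7.04% were. XTH33 and HAT2 met the limits and are no members because the rule leaves them out by name.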

How the data were processed

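The deposited table holds log2 ratios made by the authors, 1 per feature and array, of the Cy5 sample over dark Col-0 in Cy3, with the direction from the titles and dyes per the labels. Limma is named per the submitters' processing notes. Neither the normalization nor the base of the logarithm is stated in the sources; base 2 was taken. Of 45220 features, 7440 have 1 gene name, all matched by gene identifier to TAIR10.1, and stand for 7234 genes. Where a gene had several features, their mean was taken per array. Array intensities were not used here, so the number of arrays limits the precision. Genes were fitted over all 6 arrays with limma 3.58.1 in R 4.3.3, and group means were tested against 0 and against each other (two-sided; adjusted p threshold 0.05, Benjamini-Hochberg, all 7234 genes). The fit was also run on simulated data with independent arrays and 200 genes changed in each group. The real arrays share a control and 1371 genes were called lower in red light, so that run does not check these calls.

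The members and the lists were chosen with earlier results of these data known. Functional classes were assigned by keyword in the symbols and synonyms, and 6930 genes matched no keyword. The genes named by rule are the 10 lowest in red light, those next to a limit, members of classes with at least 3 members, the 4 smallest and 4 largest pifQ spreads, the 4 smallest and 4 largest shares, members with more than 1 feature, and direct neighbours in gene order, of which there were none. The 3 replicates per group were grown independently, per the series' design text. The gap of 0.5 between arrays, the reading of arrays left out and the gene families were chosen after the values were seen. Alternatives were centring, scaling, quantile normalization, feature summaries, limits, priors, weights, a replicate block and leaving out each array. Promoter and protein sequences were not used here.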

Additional observations from a re-analysis of the deposited data

How the results depend on the processing

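The number of genes that met the rule was 93 with arrays scaled to the same spread and 78 with quantile normalization, beside 150 in the report. Median centring, another feature summary and limits moved by 0.05 or 0.1 gave 112 to 185. Leaving out each array gave 137 to 162. With scaling and with quantile normalization, 53 and 53 members had groups apart in place of 100. Leaving out an array gave 102 to 121. For a fixed set of genes that can only keep or raise the count, so nothing is read from this range. Members called lower in red light numbered 147 to 150 under all alternatives run. Members called lower in pifQ numbered 30 to 78 when an array was left out, and 62 to 98 under the alternatives that kept all 6 arrays and no replicate block, with the exception of 50 where each group had its own spread. Members called lower in red light than in pifQ numbered 3 with scaling, 2 with quantile normalization, 87 with array weights and 3 to 59 when an array was left out, beside 29.

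With a replicate block, 150, 50 and 5 members were called lower in red light, in pifQ and in red light against pifQ. Deviations of same-numbered arrays from their group means correlated at -0.18, -0.15 and -0.17 across genes, and no array correlated best with its own number, so the numbers were not taken to pair the arrays. Of 92 group means of 46 genes, 4 moved by more than 1 SD with median centring, 12 with scaling and 17 with quantile normalization, and 0 changed sign under these. Leaving out 1 of 3 arrays cannot move a mean by 1 SD, and it changed the sign of 1 mean, that of AT5G62280 in pifQ, which was 0.13 without pifQ replicate 3. Promoter motifs and protein identity were not run.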

Other observations

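Of 37780 features without a gene name here, 652 had a red light mean of log2 -1 or lower, and 398 of these (61.0%) had a pifQ mean above -1 and at most -0.25. Among the 7440 named features 263 had such a red light mean and 158 (60.1%) lay within the pifQ limits. The median red light mean of the features within the limits was -1.24 in both sets, and the median pifQ mean was -0.60 for unnamed and -0.58 for named features. Unnamed features were not used to choose the members.

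Within the limits but left out by name were 5 genes. XTH19 and XTH33, which modify wall xyloglucan, had log2 -2.16 ± 0.38 and -1.63 ± 0.31 in red light and -0.73 ± 0.43 and -0.97 ± 0.47 in pifQ (SD, n = 3). GH9C2, an endoglucanase, had -1.41 ± 0.46 and -0.87 ± 0.46, CYP71B23, a cytochrome P450, -1.04 ± 0.097 and -0.67 ± 0.35, and HAT2, a homeodomain transcription factor, -1.29 ± 0.14 and -0.27 ± 0.47.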
